A study of Rattus norvegicus with 10 samples.

Results

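Smooth muscle nuclei were selected on their UMI counts from single-nucleus RNA profiles of rat heart at 24 h, as nuclei whose summed UMIs (unique molecular identifiers, a tag for each captured RNA molecule) of Myh11, Acta2, Tagln and Cnn1 reached 5 or more, with at least 2 of Myh11. The sum also had to exceed that of the pericyte genes Rgs5, Kcnmb2, Il34 and Ano1, and Ptprc, Flt1 and Pdgfra, which mark leukocytes, endothelium and fibroblasts, could contribute at most 1 UMI in all. The rule found 98 of 22037 nuclei with 500 or more UMIs. Of these, 78 of 10497 came from the BT2 library and 20 of 11540 from the vehicle library. The levels of these 11 genes chose the nuclei and are no finding here.

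All samples came from the area at risk, the heart muscle downstream of the tied left coronary artery. Rats received BT2, a small molecule given by its code name only, or vehicle, and all underwent myocardial ischaemia and reperfusion. Nuclei were profiled as 1 library with BT2 at 100 mg/kg and 1 library with vehicle, both at 24 h, so no difference between these libraries has a replicate check. RNA of whole tissue, selected for polyA tails, was sequenced in 2 libraries with BT2 and 2 with vehicle at 24 h, and as the same number at 4 h. The sources used here give neither the BT2 dose of the tissue samples nor the strain, sex and age of the rats. The hours are counted from ligation in the sample titles and from the injury in the series text, and nothing says how many animals a library holds.

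Vascular smooth muscle cells form the contractile wall of arteries and veins. Calcium entry activates myosin light chain kinase, which sets actin and smooth muscle myosin sliding, while nitric oxide acts through cyclic GMP to relax the cell. In the heart they coat the coronary arteries and arterioles, pericytes line the capillaries, and the 2 types share many genes. Injury is known to shift smooth muscle cells towards a state that makes matrix and divides, often called synthetic.

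Genes that the rule did not use went with the labelled cell type, given here as a description. Actg2, the gamma smooth muscle actin, was found at 430.4 CPM (a gene's UMIs scaled to a common total) in BT2 smooth muscle nuclei and 675.6 CPM in vehicle ones, which was 101-fold and 409-fold its level in the other nuclei of the same library. Lmod1, which nucleates actin filaments in smooth muscle, was 63.2-fold and 99.0-fold above the other nuclei in the BT2 and the vehicle library. Markers of cardiomyocytes summed to 952.8 CPM with BT2 and 967.0 CPM with vehicle, 0.0770 and 0.0859 of the level in other nuclei. Ckm and Myl2 were at 0 UMIs in both, but 67 of 78 BT2 and 18 of 20 vehicle nuclei held a UMI of some cardiomyocyte marker. The 9 endothelial markers outside the rule gave 80 UMIs in 38 of 78 BT2 nuclei and 12 UMIs in 7 of 20 vehicle nuclei. Their CPM ratio of BT2 over vehicle was 2.10 (1.14 to 4.24). Pecam1, Cdh5, Vwf, Tie1 and Kdr were at 0 in the vehicle ones. The 8 monocyte and macrophage markers outside the rule gave 84 UMIs in 42 of 78 BT2 nuclei and 21 UMIs in 13 of 20 vehicle nuclei. The 8 fibroblast markers outside the rule gave 115 UMIs in 39 of 78 BT2 nuclei and 37 UMIs in 11 of 20 vehicle nuclei, 0.345 and 0.659 of the level in other nuclei, with Lum and Col1a2 at 0 in both. The 4 adipocyte markers had no UMI. Pericyte markers were not low beside other nuclei: the 7 outside the rule summed to 1325 CPM in BT2 nuclei (UMIs in 74 of 78) and 1696 CPM in vehicle nuclei (18 of 20), 1.40-fold and 2.15-fold the level in other nuclei, and Notch3, which smooth muscle cells also express, gave 52.6% of their UMIs. In nuclei that met a matching rule for pericytes, the same 7 summed to 8270 CPM with BT2 and 8020 CPM with vehicle. Of these 7, Vtn was at 0 in BT2 nuclei and Higd1b and Colec11 were at 0 in both. Doublets were not removed by a caller, and no smooth muscle nucleus held more than 5% mitochondrially encoded UMIs.

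Many nuclei lay near an edge of the rule. The summed marker count had a median of 13 UMIs in BT2 nuclei (5 to 67) and 12 in vehicle nuclei (5 to 39). Counts of 5 or 6 occurred in 11 BT2 and 3 vehicle nuclei, and a further 6 BT2 and 3 vehicle nuclei missed the rule with a sum of 4. Another 15 BT2 and 3 vehicle nuclei were left out because the pericyte sum was as high or higher. Of the members, 29 of 78 BT2 and 8 of 20 vehicle nuclei held the 1 UMI of Ptprc, Flt1 and Pdgfra that the rule allowed. These genes excluded 8 BT2 and 4 vehicle nuclei at 2 UMIs, and 26 and 11 at more than 2. The pericyte genes were at 0 in 24 of 78 BT2 and 9 of 20 vehicle nuclei.

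Smooth muscle nuclei made up a larger share of the BT2 library. The share was 0.743% (exact 95% binomial interval 0.588 to 0.927) with BT2 and 0.173% (0.106 to 0.268) with vehicle, a ratio of 4.29 (2.60 to 7.4). Intervals here cover counting error only, not differences between animals or in how nuclei were recovered. Nuclei of a matching pericyte rule made up 3.67% (3.32 to 4.05) with BT2 and 2.69% (2.41 to 3.01) with vehicle, a ratio of 1.36 (1.17 to 1.59). Among nuclei of either mural rule, smooth muscle nuclei were 16.8% (13.6 to 20.6) in BT2 and 6.04% (3.73 to 9.18) in vehicle, so the difference from vehicle was larger for smooth muscle than for pericytes in this pair of libraries.

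The libraries differed in other cells too. Nuclei with 2 or more Ptprc UMIs made up 26.0% of the BT2 library and 44.7% of the vehicle library. With those left out of the total, smooth muscle nuclei were 1.0% (0.794 to 1.25) with BT2 and 0.314% (0.192 to 0.484) with vehicle, a ratio of 3.2 (1.94 to 5.52). Nuclei had a median of 2137 UMIs in the BT2 library and 2449 in the vehicle library, and the rule needs a fixed number of UMIs. When every nucleus was thinned to 1000 UMIs, 47 of 9227 BT2 nuclei (0.509%) and 8 of 10189 vehicle nuclei (0.0785%) met the rule, a ratio of 6.49 (3.04 to 15.9). The libraries shared 37 cell barcodes, and no smooth muscle nucleus carried one of them.

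**Figure D1:**
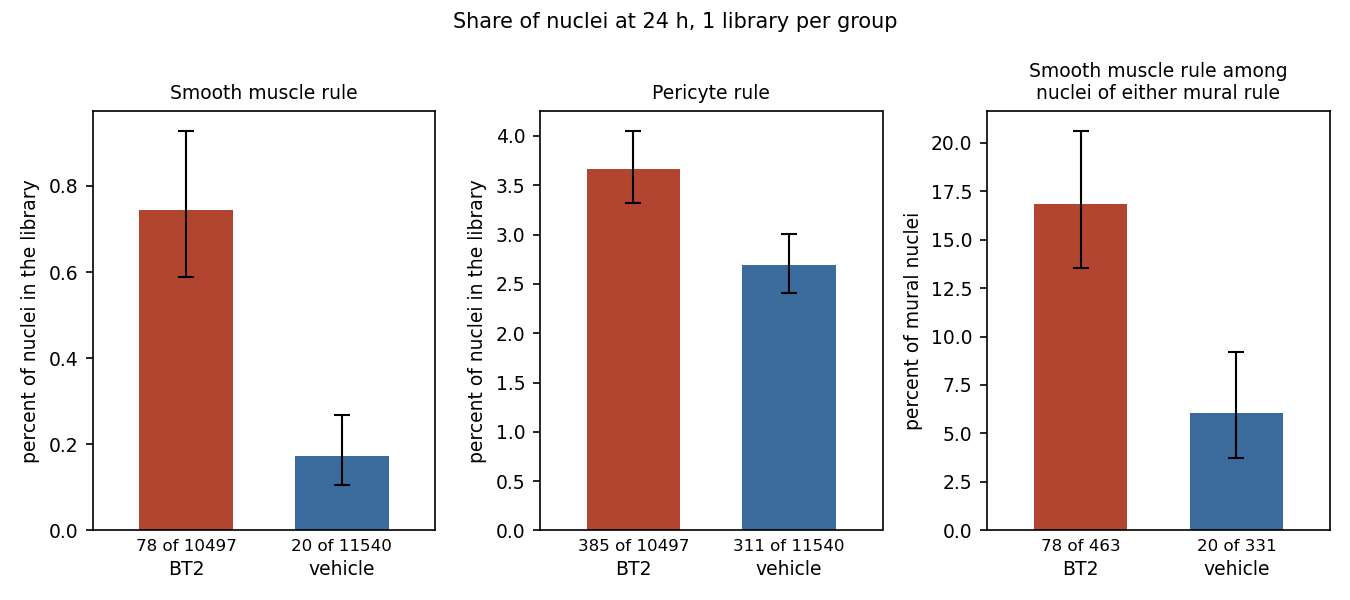
Share of nuclei that met the smooth muscle rule (left), the pericyte rule (middle), and the smooth muscle rule among nuclei of either (right), in percent, for the BT2 and the vehicle library; bars are shares, lines exact 95% binomial intervals, and the counts stand under the bars. The smooth muscle share was 0.743% with BT2 and 0.173% with vehicle, and the pericyte share 3.67% and 2.69%.

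The marker genes chose the nuclei, so where their transcripts lay is given as a description only. Myh11, the smooth muscle myosin heavy chain, had 1792 UMIs in all BT2 nuclei, of which 49.3% lay in smooth muscle nuclei, and 803 UMIs in all vehicle nuclei, of which 25.5% did. Over all nuclei, Myh11 was at 54.9 CPM in the BT2 library and at 17.7 CPM in the vehicle library. Acta2, smooth muscle alpha actin, had 22.5% of its UMIs in smooth muscle nuclei of the BT2 library and 4.40% in those of the vehicle library. For Tagln, which encodes the actin-binding protein transgelin, these percentages were 25.4% with BT2 and 7.59% with vehicle. Cnn1, the actin-binding calponin 1, was sparse, with 11 of 54 UMIs in BT2 and 7 of 21 UMIs in vehicle smooth muscle nuclei.

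The 98 nuclei gave 239304 UMIs with BT2 and 75493 with vehicle. A BT2 nucleus had a median of 2230.5 UMIs (623 to 15309), and a vehicle nucleus 2653 (521 to 10134). The deepest nucleus held 6.4% of the BT2 sum and 13.4% of the vehicle sum, and many vehicle values below rest on a few nuclei. At least 50 UMIs in each library were reached by 206 genes, of which 85 were 2-fold or more and 39 were 5-fold or more above the other nuclei in both libraries. The 15 genes that stood furthest above the other nuclei are described next.

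Among the channels, Kcnma1, the pore of the large-conductance calcium-activated potassium channel, had 289 UMIs in 40 BT2 nuclei and 83 UMIs in 13 vehicle nuclei. That put it 124-fold above the other nuclei with BT2 and 280-fold with vehicle, while pericyte-rule nuclei had 15 UMIs of it with BT2 and 0 with vehicle. Kcnab1, a subunit of voltage-gated potassium channels, stood 69.5-fold and 175-fold above the other nuclei in BT2 and vehicle. Cacnb4, a calcium channel subunit, stood 44.4-fold and 47.6-fold above them. Cacna1c, the pore of the L-type calcium channel, had 8295 CPM in BT2 and 10451 CPM in vehicle nuclei but was only 2.87-fold and 3.74-fold above the other nuclei, among which cardiomyocytes express it as well.

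Receptors and their regulators were the next group. Chrm3, the M3 muscarinic receptor, stood 47.8-fold above the other nuclei with BT2 and 44.5-fold with vehicle. Ntrk3, the receptor for neurotrophin 3, stood 58.0-fold and 290-fold above them, and it was at 8 UMIs in BT2 pericyte-rule nuclei and 0 UMIs in vehicle ones. Rgs7bp and Rgs6, which act on G protein signalling, stood 27.7-fold and 13.3-fold above the other nuclei with BT2 and 31.5-fold and 12.2-fold with vehicle. Gucy1a3, a subunit of the guanylyl cyclase that nitric oxide activates, was 17.9-fold above them with BT2 and 13.6-fold with vehicle, and Mrvi1, a target of the cyclic GMP kinase, 18.7-fold and 17.6-fold. The contractile genes in this group were Actg2, Lmod1, Mylk (myosin light chain kinase, 15.2-fold and 15-fold) and Synpo2 (an actin bundler, 12.3-fold and 15.1-fold). Slit3, a secreted guidance protein, and Dgkb, a diacylglycerol kinase, completed it. Several were also common in pericyte-rule nuclei. After thinning to 1000 UMIs, Gucy1a3 was in 51.9% of BT2 and 46.0% of vehicle pericyte-rule nuclei, against 71.4% and 44.4% of smooth muscle nuclei. For Mrvi1 these were 59.3% and 59.1% against 75.7% and 72.2%, and for Mylk 35.4% and 42.6% against 57.1% and 66.7%. For Dgkb they were 34.6% and 47.0% against 88.6% and 61.1%. Slit3, Chrm3, Lmod1, Actg2, Kcnma1 and Ntrk3 were each in at most 6.12% of pericyte-rule nuclei.

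**Figure D2:**
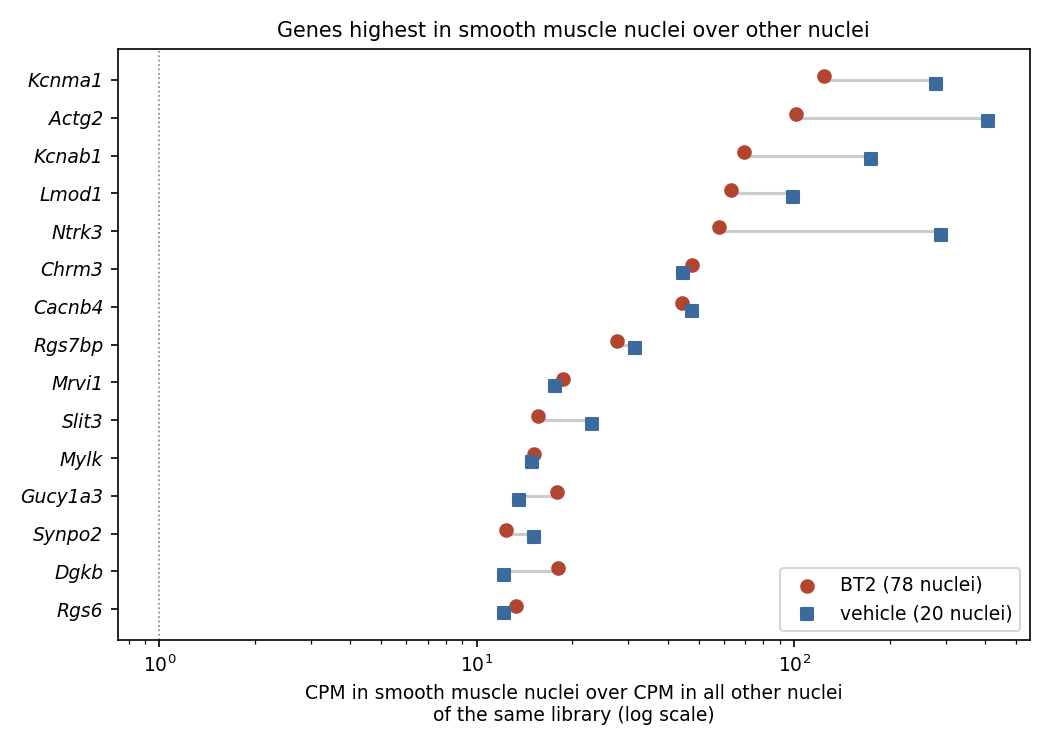
CPM in smooth muscle nuclei divided by CPM in all other nuclei of the same library, on a log axis, for the 15 genes with the highest such ratio in both libraries; circles are BT2 and squares vehicle. All 15 were more than 12-fold above the other nuclei in both libraries, from Rgs6 (13.3 and 12.2) to Kcnma1 (124 and 280).

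Not all smooth muscle nuclei carried the same genes. Ntrk3 had 2 or more UMIs in 23 of 78 BT2 nuclei (29.5%, 19.7 to 40.9) and in 10 of 20 vehicle nuclei (50%, 27.2 to 72.8), and no UMI in 53 BT2 and 10 vehicle nuclei. In single nuclei it reached 95 UMIs with BT2 and 56 with vehicle. After thinning to 1000 UMIs, 27.1% of 70 BT2 nuclei and 50% of 18 vehicle nuclei had an Ntrk3 UMI, against 1.67% and 0.359% of the BT2 and vehicle nuclei with Ptprc, which should lack it and had median depths of 2503 and 2777 UMIs. The split by Ntrk3 was chosen after its values were seen, and nuclei with Ntrk3 were also deeper, with a median of 3559 UMIs in BT2 and 5360.5 in vehicle, against 1959 in BT2 and 2100.5 in vehicle without it. The split also went with the pericyte genes of the rule. Their median was 0 UMIs with Ntrk3 in both libraries, and 4 in BT2 and 2.5 in vehicle nuclei without it. They were at 0 in 15 of 23 BT2 and 6 of 10 vehicle nuclei with Ntrk3, and in 9 of 53 and 3 of 10 without.

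Of 532 genes with 100 or more UMIs, 28 were 2-fold or more higher and 21 were 2-fold or more lower with Ntrk3 in both libraries, and 3 went opposite ways. When, for each gene, the nucleus of each library that held most of its UMIs was left out, 10 were higher and 27 lower, of which 9 and 14 had been so over all nuclei. Eln, which encodes elastin, had 76 UMIs in Ntrk3 nuclei and 13 UMIs in those without Ntrk3 of the BT2 library (6.13-fold in CPM), and 54 and 1 UMIs in the vehicle library. Eln was detected in 14 of the 23 and 6 of the 53 BT2 nuclei, and in 7 of 10 and 1 of 10 vehicle nuclei. Without its top nucleus in each library it had 50 and 13 UMIs with BT2 (4.15-fold), and 31 and 1 UMIs with vehicle. Ror1, a receptor for Wnt5a, was 3.23-fold higher with Ntrk3 in BT2 and 4.24-fold in vehicle nuclei, and 2.39-fold and 3.04-fold without the top nucleus, though in vehicle the top nuclei held 88 and 82 of its 213 UMIs with Ntrk3. Other ratios rested on 1 nucleus. Hgf, hepatocyte growth factor, was 4.57-fold higher with Ntrk3 in BT2 nuclei and 0.871-fold without the nucleus that held 40 of its UMIs. Itga5, the fibronectin receptor subunit, was 4.98-fold higher in BT2 and 2.52-fold in vehicle nuclei, but 0.898-fold and 1.96-fold without the top ones. Actg2 was 6.15-fold higher in BT2 and 4.21-fold in vehicle nuclei, of which 4.83-fold and 1.23-fold were left, since 35 of its 46 vehicle UMIs with Ntrk3 lay in 1 nucleus.

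The genes that were lower with Ntrk3 included Chrm3, which was at 0.179 of the level without Ntrk3 in BT2 nuclei and 0.280 in vehicle nuclei. B3galt1, a galactosyltransferase, was at 0.164 with BT2 and 0.149 with vehicle, and Inpp4b, an inositol phosphatase, at 0.182 and 0.0552. Without the top nuclei, Chrm3 was at 0.187 with BT2 and 0.356 with vehicle, B3galt1 at 0.176 and 0.274, and Inpp4b at 0.193 and 0.0679. Cacna1d, another L-type calcium channel gene, belonged to the same group. Lmod1 and Mylk did not divide this way: in nuclei with Ntrk3, Lmod1 was at 1.08 of the level without it in BT2 and 0.806 in vehicle, and Mylk at 1.56 and 0.742.

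**Figure D3:**
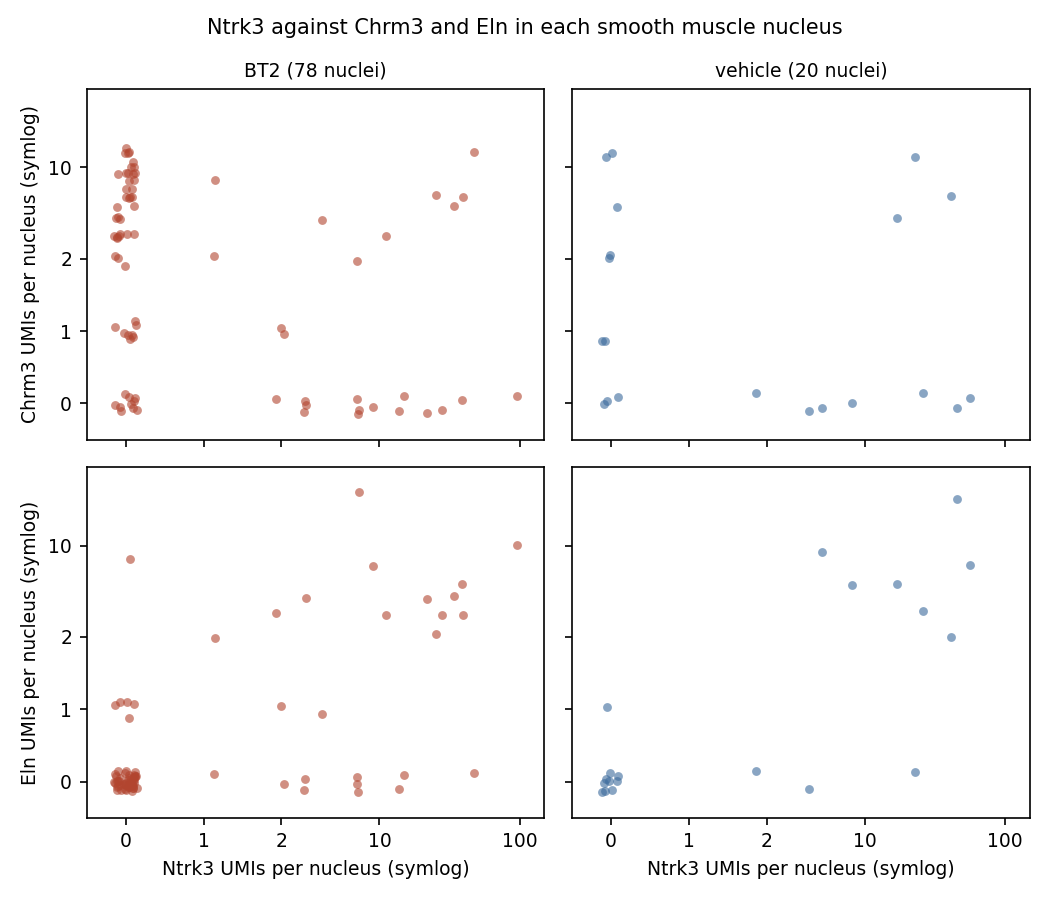
UMIs of Ntrk3 against UMIs of Chrm3 (top) and Eln (bottom) in each smooth muscle nucleus of the BT2 library (left, 78 nuclei) and the vehicle library (right, 20 nuclei), on symmetric log axes with a small random shift so that points do not overlap. Eln lay mostly in nuclei with Ntrk3, and Chrm3 mostly in nuclei without it, though some nuclei held both.

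Within smooth muscle nuclei, BT2 and vehicle were compared by the ratio of their CPM, with an exact 95% Poisson interval and no test. Of 697 genes with at least 50 UMIs in the library where they were higher, 72 (10.3%) were 2-fold or more higher and 8 (1.15%) were 2-fold or more lower with BT2. The filter was not even, since 50 UMIs made 209 CPM in BT2 nuclei and 662 CPM in vehicle nuclei, and the median log2 ratio of the genes it kept was 0.33. With the same CPM minimum in both libraries 251 genes were kept, 6 (2.39%) were 2-fold or more higher and 8 (3.19%) lower, and the median log2 ratio was 0.07. With the even filter, 2-fold higher genes did not outnumber 2-fold lower ones.

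The 6 higher genes under the even filter were Dmp1 (3.12, 1.89 to 5.48), Cnnm2 (3.03), Col4a5 (2.67), Sgip1 (2.28), Arhgap6 (2.15) and Akap6 (2.12). Col4a5 encodes a basement membrane collagen chain and had 161 UMIs in BT2 and 19 UMIs in vehicle nuclei. Arhgap6, a GTPase-activating protein, had 476 UMIs in 71 BT2 nuclei and 70 UMIs in 16 vehicle nuclei. Its ratio was 3.82 (2.47 to 6.16) with Ntrk3 and 1.16 (0.85 to 1.61) without it. Dmp1 was at 0.97 (0.37 to 2.81) with Ntrk3 and 2.93 (1.55 to 6.23) without it. Beside pericyte-rule nuclei, Sgip1 was at 0.904 of their CPM in BT2 and 0.318 in vehicle, and Arhgap6 at 1.27 and 0.625. Dmp1, Cnnm2, Col4a5 and Akap6 lay above the pericyte-rule level in both libraries. Akap6, an anchor of protein kinase A, had 349 UMIs in BT2 and 52 UMIs in vehicle nuclei.

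The genes with the highest ratios of all rested on very few vehicle UMIs. Apoo, a subunit of the complex that shapes mitochondrial cristae, had 76 UMIs in 18 BT2 nuclei and 2 UMIs in 2 vehicle nuclei, a ratio of 12 (3.21 to 101). Sdk1, a cell adhesion molecule, had 63 UMIs in 15 BT2 nuclei and none in vehicle nuclei, which makes it at least 6.62-fold higher when the vehicle sum is set to 3 UMIs. Of these, 62 Sdk1 UMIs and 66 Apoo UMIs lay in BT2 nuclei without Ntrk3. After thinning, Sdk1 was found in 14.3% of BT2 smooth muscle nuclei and 26.0% of BT2 nuclei with Ptprc, and Apoo in 17.1% and 12.7%, so neither stood clear of the level in leukocytes. Col19a1, a collagen gene, had 72 UMIs in 30 BT2 nuclei and 4 UMIs in 2 vehicle nuclei (5.68, 2.12 to 21.4), and in BT2 nuclei it was 33.0-fold above the other nuclei. Ednrb, the endothelin B receptor, had 64 UMIs in 14 BT2 nuclei and 4 UMIs in 3 vehicle nuclei (5.05, 1.88 to 19.1), and 53 of the 64 lay in nuclei with Ntrk3. Dock4 followed with 53 UMIs in BT2 and 3 UMIs in vehicle nuclei (5.57, 1.81 to 27.9), and Lama2, Pawr, Cdk14, Luzp1, Fat3, Sync and Zfp521 with ratios from 4.56 to 3.84 and 4 to 10 vehicle UMIs each. In thinned smooth muscle nuclei, Sync was found in 12.9% with BT2 and 11.1% with vehicle, and Ednrb in 11.4% and 5.56%. Further apart were Pawr (35.7% and 11.1%) and Luzp1 (25.7% and 5.56%). Shares of all these genes were higher with BT2, but those of vehicle rest on 18 nuclei. After thinning, Dock4 was in 18.6% of BT2 smooth muscle nuclei and 63.1% of BT2 nuclei with Ptprc, Cdk14 in 28.6% and 60.7%, Zfp521 in 24.3% and 29.3%, and Lama2 in 35.7% and 34.8%, so these 4 did not stand clear of the level in leukocytes. Luzp1, in 18 of 70 and 492 of 2458 nuclei, and Ednrb, in 11.4% and 5.61%, differed from it by less than counting error. Pawr (35.7% and 4.48%), Fat3 (24.3% and 8.26%), Sync (12.9% and 2.32%) and Col19a1 (24.3% and 0.773%) were higher in smooth muscle nuclei than in leukocytes. In thinned BT2 pericyte-rule nuclei, Lama2 (72.3%), Cdk14 (43.4%), Fat3 (38.3%), Zfp521 (29.8%) and Ednrb (16.0%) were found at least as often as in smooth muscle nuclei. Less often found there were Luzp1 (17.6%), Apoo (11.7%), Dock4 (10.6%), Sdk1 (8.78%), Pawr (8.51%), Col19a1 (2.13%) and Sync (0.532%).

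The lowest ratios rested on more UMIs but often on single nuclei. Kcnab1 had 851 UMIs in 60 of 78 BT2 nuclei and 709 UMIs in 16 of 20 vehicle nuclei, or 3556 CPM with BT2 and 9392 CPM with vehicle (0.38, 0.34 to 0.42). The top vehicle nucleus held 25.7% of its vehicle UMIs, and without the top nucleus of each library the ratio was 0.42 (0.37 to 0.47). The lower level was found in nuclei with Ntrk3, at 0.26 of vehicle, while in nuclei without Ntrk3 the ratio was 0.83. Kcnab1 was detected in 74.3% of BT2 and 77.8% of vehicle nuclei after thinning, so similar shares of nuclei held at least 1 UMI. In pericyte-rule nuclei its ratio was 0.44. Ror1 had 241 UMIs in BT2 and 236 UMIs in vehicle nuclei (0.32, 0.27 to 0.39). This ratio leaned on 2 vehicle nuclei with Ntrk3, which held 88 and 82 of the 236 UMIs. The ratio was 0.38 with Ntrk3, which includes these nuclei, and 0.50 (0.30 to 0.85) without it. After thinning, Ror1 was in 35.7% of 70 BT2 and 55.6% of 18 vehicle nuclei.

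Col8a1, a collagen of the vessel wall, showed how a single nucleus can set a ratio. It had 115 UMIs in BT2 and 91 UMIs in vehicle nuclei (0.40, 0.30 to 0.53), but 76.9% of the vehicle UMIs lay in 1 nucleus, and without the top nucleus of each library the ratio was 1.10 (0.67 to 1.87). Actg2 moved in the same way, to 1.44 (0.83 to 2.63) where all nuclei gave 0.64 (0.45 to 0.91). Ppp3cc, a calcineurin subunit, Dclk1, Lama5, Itpk1, Adamts2 and Epas1 (HIF-2 alpha) had ratios between 0.36 and 0.52, and without the top nuclei between 0.36 and 0.50. Actn1 and Vcl, alpha-actinin and vinculin of the adhesion sites, had ratios of 0.50 (0.40 to 0.63) and 0.52 (0.39 to 0.70) over all nuclei. They were close to this in both kinds of nuclei, at 0.57 and 0.53 with Ntrk3 and 0.55 and 0.52 without it.

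The contractile list outside the rule held 22 genes with 4869 UMIs in BT2 and 1794 UMIs in vehicle nuclei. It summed to 20346 CPM with BT2 and 23764 CPM with vehicle, a ratio of 0.86 (0.81 to 0.90). Of its 14 genes with enough UMIs, none passed 2-fold, and their median log2 ratio was -0.09. The median over all genes was 0.33 under the same uneven filter, and 0.07 under the even one. Cald1, caldesmon, which binds actin and myosin, was at 0.86 (0.76 to 0.97), Synpo2 at 0.84 (0.74 to 0.95), Tpm1, a tropomyosin, at 1.06 (0.89 to 1.25) and Mylk at 1.14 (0.90 to 1.44). Per nucleus the list had a median of 16862 CPM with BT2 (4955 to 57796) and 22670 CPM with vehicle (10543 to 36909), and these ranges overlap. In nuclei with Ntrk3 the ratio was 1.08 (1.01 to 1.15), and in those without it 0.66 (0.60 to 0.73), so the 2 kinds of nuclei lay on opposite sides of 1. These 2 kinds also differed in depth and in UMIs of the pericyte genes. The ratio of the list also turned to 1.01 when Ptprc, Flt1 and Pdgfra had to be at 0. Pericyte-rule nuclei gave 0.91 (0.88 to 0.94) for the same list.

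Signalling that sets vessel tone was close between the libraries. The list of calcium and nitric oxide genes had a ratio of 1.0 (0.96 to 1.03) over 10948 UMIs in BT2 and 3470 in vehicle nuclei. Within it, Prkg1, the cyclic GMP kinase, was at 1.2 (1.11 to 1.29), Gucy1a3 at 1.67 (1.29 to 2.2) and Trpc6, a cation channel, at 2.03 (1.23 to 3.55), while Cacna1c was at 0.79 (0.73 to 0.86). Vasoactive receptors had a ratio of 1.21 (0.95 to 1.54). Ednra, the endothelin A receptor, was at 0.97 (0.66 to 1.46), and the angiotensin receptor Agtr1a had 1 UMI with BT2 and 0 with vehicle.

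Regulators of the smooth muscle state were measured with fewer UMIs. Myocd, the cofactor that drives contractile genes, had 176 UMIs in 54 BT2 nuclei and 60 UMIs in 10 vehicle nuclei (0.93, 0.69 to 1.26). Notch3, the Notch receptor of mural cells, had 161 UMIs in BT2 and 73 UMIs in vehicle nuclei (0.70, 0.52 to 0.93). Over all 28 transcription factors the ratio was 0.87 (0.79 to 0.95), with Zeb2 at 0.70, Tead1 at 0.68 and Mef2d at 0.49 below it. The Notch, TGF-beta and PDGF list was at 1.04 (0.92 to 1.18), and Pdgfrb within it at 1.56 (1.0 to 2.54).

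Matrix genes summed to 11329 CPM with BT2 and 12849 CPM with vehicle, a ratio of 0.88 (0.82 to 0.95). Collagen XVIII (Col18a1) was at 0.57 (0.43 to 0.75), Col4a2 at 0.72 (0.59 to 0.88) and Eln at 0.52 (0.37 to 0.74), while Lama4 was at 1.47 (1.08 to 2.02) and Ltbp1, which anchors latent TGF-beta, at 1.36 (1.08 to 1.73). Col4a1 of the basement membrane was at 0.97 over all nuclei but at 1.57 with Ntrk3 and 0.43 without it. The synthetic list had a ratio of 0.68 (0.58 to 0.79), and Col8a1 alone gave 26.0% of its UMIs. In nuclei without Ntrk3 that list was at 1.16 (0.85 to 1.62). Spp1, osteopontin, had 20 UMIs in BT2 and 5 UMIs in vehicle nuclei (1.26, 0.46 to 4.30), and Vcan, versican, 41 UMIs and 6 UMIs (2.16, 0.91 to 6.21). The adhesion and dystrophin list was at 1.03 (0.97 to 1.09), from a ratio of 1.36 with Ntrk3 and 0.70 without it.

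Stress and growth genes were sparse. The list of unfolded protein and stress response genes had 113 UMIs in BT2 and 70 UMIs in vehicle nuclei, a ratio of 0.51 (0.37 to 0.70), which was alike with Ntrk3 (0.50) and without it (0.51). Within it the chaperones Hspa5, at 7 UMIs with BT2 and 9 with vehicle (0.25, 0.08 to 0.74), and Hsp90b1, at 16 and 16 (0.32, 0.15 to 0.67), were the only 2 genes with an interval below 1. Pericyte-rule nuclei had a ratio of 1.02 (0.90 to 1.16) for this list. Cell cycle genes gave 87 UMIs in BT2 and 44 UMIs in vehicle nuclei (0.62, 0.43 to 0.92), of which 39 vehicle UMIs lay in nuclei with Ntrk3. Oxidative phosphorylation and fatty acid oxidation genes were at 1.34 (1.01 to 1.80). The immediate early list had a ratio of 1.0 (0.79 to 1.28), from 0.87 (0.66 to 1.15) with Ntrk3 and 2.34 (1.26 to 4.80) without it, where vehicle nuclei had 11 UMIs. Fos had 35 UMIs in 19 BT2 nuclei and 1 UMI in 1 vehicle nucleus (11, 1.86 to 448), and Junb 15 UMIs and 13 UMIs (0.36, 0.16 to 0.83). The ERK feedback (1.04), hypoxia and glycolysis (0.96), clock and glucocorticoid (0.93), NRF2 target (0.88) and heat shock (0.75, 0.53 to 1.07) lists all had intervals that included 1. Cytokine and NF-kB genes were at 1.0 (0.83 to 1.21). Il6 and Nppa had no UMI in either group of nuclei, and Egr1, Vcam1 and Ccl2 had at most 2.

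**Figure D4:**
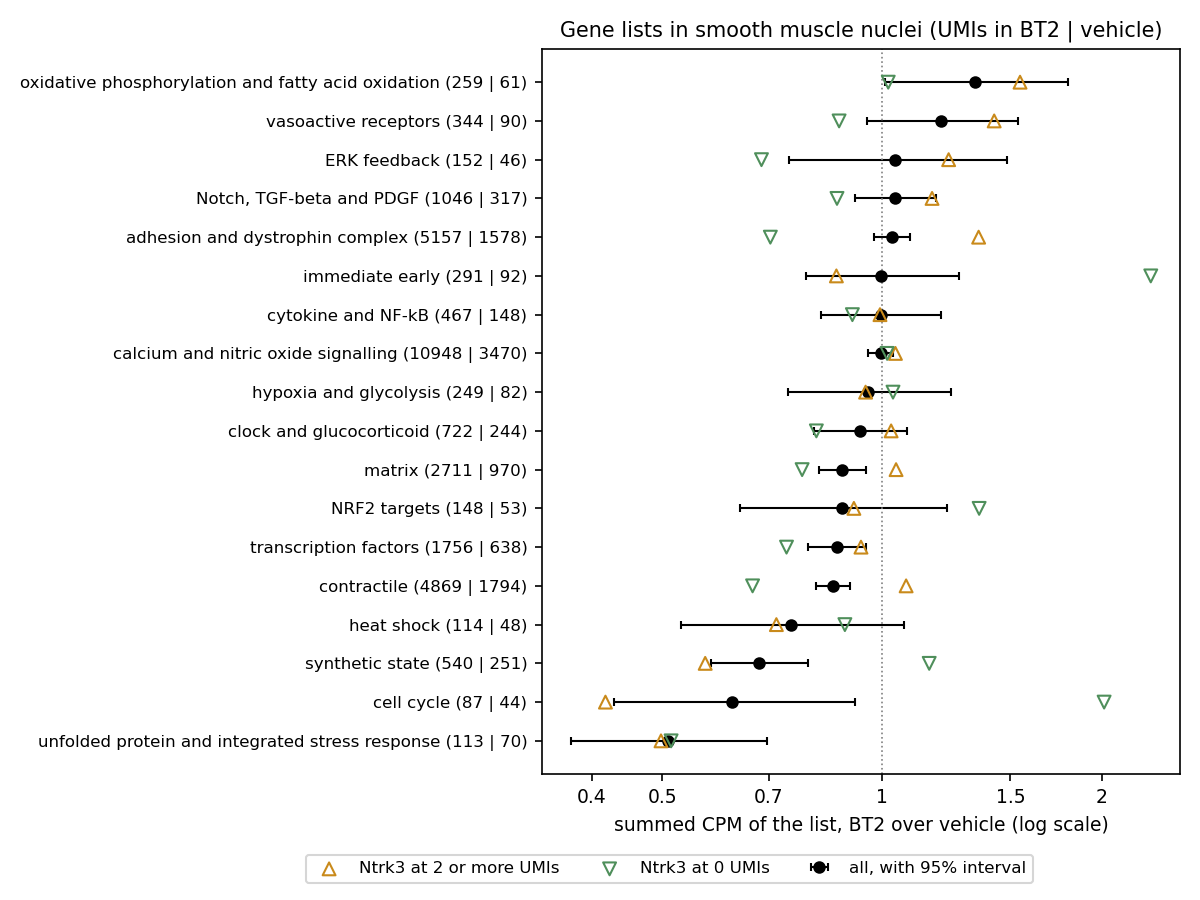
Summed CPM of the gene lists shown in BT2 smooth muscle nuclei over that in vehicle ones, on a log axis, with 95% counting intervals (black), and the same ratio in nuclei with 2 or more Ntrk3 UMIs and in nuclei with none (open triangles); the UMIs of each list stand beside its name. The stress response list was at about 0.5 in both kinds of nuclei, whereas the contractile list was at 1.08 with Ntrk3 and 0.66 without it.

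Tissue RNA gave the smooth muscle genes in 2 libraries per group that the rule had not used, and these were tested. Over 15216 genes, edgeR's quasi-likelihood test called 2873 (18.9%) higher and 3143 (20.7%) lower with BT2 at 24 h, at a Benjamini-Hochberg adjusted p under 0.05. The p-values measure the spread between these libraries, since nothing states that they came from separate animals. Fewer smooth muscle cells and less RNA per cell cannot be told apart in tissue.

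Myh11 was at 133.4 and 114.6 CPM in the BT2 libraries and at 59.8 and 50.4 CPM in the vehicle libraries. Both BT2 values lay above both vehicle values, and the log2 fold change was 1.17 ± 0.18 (SE; adjusted p = 0.0025), called in all 10 alternative fits. Acta2 was at 86.7 and 102.7 CPM in BT2 and at 123.7 and 103.5 CPM in vehicle tissue (-0.26 ± 0.27, adjusted p = 0.464), and Tagln at 48.2 and 60.1 CPM in BT2 and 66.8 and 61.2 CPM in vehicle tissue (-0.24 ± 0.22, adjusted p = 0.421). Cnn1 was at 3.71 and 2.94 CPM in BT2 and at 8.43 and 10.6 CPM in vehicle tissue (-1.52 ± 0.43, adjusted p = 0.0247), and that call was lost when any 1 of the 4 libraries was left out (adjusted p up to 0.121). The 4 markers of the rule therefore did not move together in tissue: 1 rose, 1 fell and 2 missed the threshold. For Acta2 and Tagln, which missed it, both BT2 values still lay below both vehicle values. Of the pericyte genes, Rgs5 rose by 0.92 ± 0.19 and Il34 by 0.90 ± 0.18 on the log2 scale (adjusted p = 0.0065 and 0.0063), and Kcnmb2 and Ano1 missed the threshold. Rgs5 was at an adjusted p of 0.0514 without vehicle replicate 2. At 4 h, Myh11 had been at 88.6 and 68.3 CPM in BT2 and at 84.0 and 62.0 CPM in vehicle tissue, and these values overlap.

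**Figure D5:**
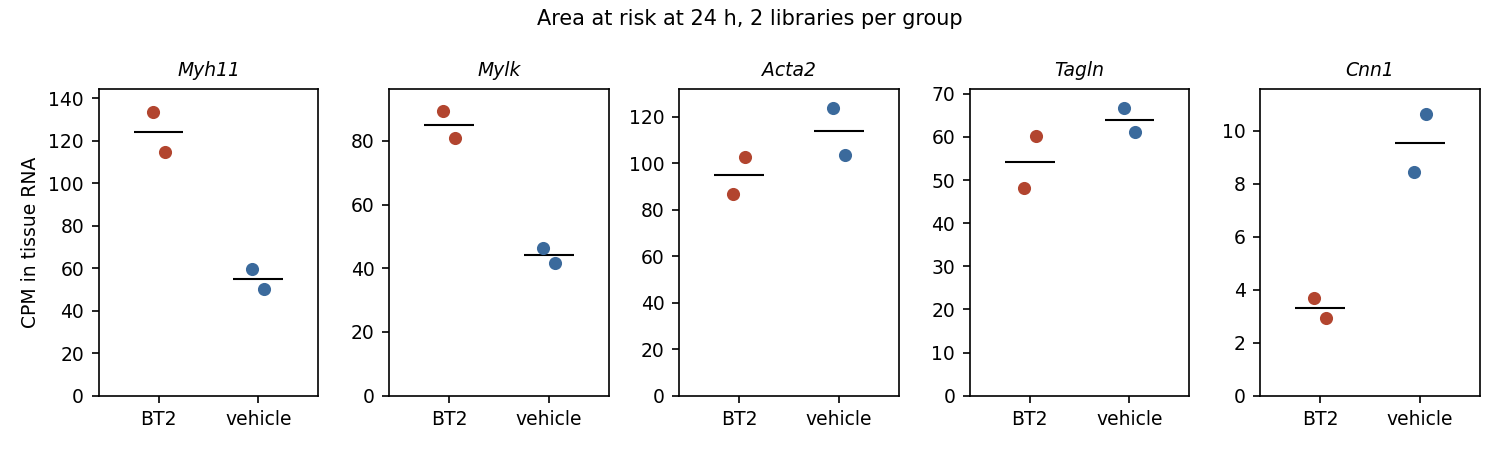
CPM of Myh11, Mylk, Acta2, Tagln and Cnn1 in each tissue library at 24 h, with BT2 left of vehicle; points are libraries (2 per group), lines their mean, and each axis starts at 0. Myh11 and Mylk lay higher in both BT2 libraries and Cnn1 lay lower in both. Acta2 and Tagln also lay lower in both, by less, and missed the threshold.

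The contractile list was divided in tissue. Of its 22 genes 7 rose (18.9% of all genes did), 6 fell (20.7% of all genes) and 9 missed the threshold, with a median log2 fold change of -0.04 beside -0.01 for all genes. Mylk rose by 0.95 ± 0.13 (adjusted p = 0.0016; 89.3 and 80.8 CPM in BT2, 46.5 and 41.6 CPM in vehicle tissue), and Smtn, smoothelin, by 0.94 ± 0.16. Myl9, the regulatory light chain, rose by 0.66 ± 0.13, and Lmod1 by 0.78 ± 0.27 (adjusted p = 0.0475). Tns1 and Palld were also among those that rose. Actn1 fell by 2.0 ± 0.32 on the log2 scale (adjusted p = 0.0032; 61.3 and 81.4 CPM in BT2, 274.4 and 295.1 CPM in vehicle tissue), Des, desmin, by 0.96 ± 0.18, Flna, filamin A, by 0.90 ± 0.20, and Myl6, Csrp1 and Pdlim7 also fell. Most nuclear RNA of these genes lay outside smooth muscle nuclei, for those that rose as for those that fell. Smooth muscle nuclei held 10.1% of the Mylk UMIs of the BT2 library and 2.43% of those of the vehicle library, 31.8% and 14.1% of those of Lmod1, 2.22% and 0.725% of those of Smtn, 2.80% and 0.813% of those of Myl9, 1.47% and 0.723% of those of Actn1, and 3.25% and 0.490% of those of Flna. Lmod1 and Csrp1 lost the call when any 1 of the 4 libraries was left out (adjusted p up to 0.255 and 0.145), and Lmod1 with DESeq2 too. Pdlim7 lost it without either BT2 library or vehicle replicate 2 (up to 0.0841), and Tns1 without BT2 replicate 1 or either vehicle library (up to 0.14). Palld lost it without BT2 replicate 1 or vehicle replicate 1 (up to 0.0602), and Flna without BT2 replicate 1 (0.0593).

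Other genes of smooth muscle nuclei were read in tissue as well, where RNA of other cells is measured with theirs. Of the 15 genes that stood furthest above other nuclei, Dgkb rose by 1.47 ± 0.33, Gucy1a3 by 1.24 ± 0.25, Rgs6 by 0.85 ± 0.16 and Mrvi1 by 0.71 ± 0.21 on the log2 scale, besides Mylk and Lmod1. Over all genes tested in tissue, 18.9% rose. Tissue values of Kcnma1, Cacnb4, Rgs7bp, Slit3 and Synpo2 are not reported here, so no share of the 15 is given. Mrvi1 lost the call when any 1 of the 4 libraries was left out (adjusted p up to 0.153), Dgkb without BT2 replicate 2 or vehicle replicate 1 (up to 0.0692), and Gucy1a3 without BT2 replicate 1 or vehicle replicate 2 (up to 0.0558). Kcnab1 was at 2.35 and 1.35 CPM in BT2 and 2.29 and 2.11 CPM in vehicle tissue (-0.26 ± 0.50, adjusted p = 0.709), and Actg2 and Ntrk3 also missed the threshold. Chrm3 was at 0.904 and 0.612 CPM in BT2 and 0.243 and 0.290 CPM in vehicle tissue, which did not overlap but missed the threshold (adjusted p = 0.0628). The calcium and nitric oxide list had 10 of 21 genes higher and 2 lower, and in the matrix list 5 of 34 rose and 13 fell, beside 18.9% of all genes higher and 20.7% lower. Eln rose by 0.63 ± 0.14 in tissue (adjusted p = 0.0106, up to 0.0783 without BT2 replicate 2 or vehicle replicate 2), while Col18a1 fell by 1.71 ± 0.22, Col8a1 by 1.37 ± 0.28 and Col4a1 by 0.77 ± 0.15 on the log2 scale. Smooth muscle nuclei held only 1.74% of the Eln UMIs of the BT2 library and 1.02% of those of the vehicle library. For Col4a1 these were 1.44% and 0.444%, so most nuclear RNA of both genes lay in other nuclei. Of the synthetic list 5 of 24 rose and 17 fell, and all 24 cell cycle genes fell, against 18.9% of all genes higher and 20.7% lower. Fos was at 30.9 and 23.9 CPM in BT2 and at 50.1 and 81.8 CPM in vehicle tissue and fell by 1.27 ± 0.29 on the log2 scale (adjusted p = 0.0128). That call was lost without BT2 replicate 2, without vehicle replicate 2 and without the filter on low counts (adjusted p up to 0.0824).

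Markers of other cells moved in the same tissue libraries. Beside 18.9% of all genes, cardiomyocyte markers rose in 11 of 12 genes (median log2 fold change 0.98) and pericyte markers in 6 of 11 (0.89). Monocyte and macrophage markers fell in 8 of 9 (-1.11), beside 20.7% of all genes. Their part in the tissue values of the smooth muscle genes was not tested.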

How the data were processed

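Per the submitters' processing notes, tissue reads were processed with Trim Galore, STAR and featureCounts on Rnor_6.0, and nuclear reads with Cell Ranger; the file headers give its version as 8.0.1. The authors deposited raw counts per gene for tissue and UMI counts per gene and nucleus. The sources used here do not give the strand setting, annotation or intron counting, so values of overlapping genes and near-identical copies are uncertain. The members and gene lists (31 lists, 504 entries, of which 503 matched the nuclear features by symbol or alias) were chosen with earlier results of these data known. UMIs were summed over members per library and scaled to their total. Ratios carry exact Poisson intervals and shares exact binomial (Clopper-Pearson) intervals at 95%. On counts simulated with counting error alone, 95.9% of the ratio intervals held the true ratio. Those counts had no differences between nuclei, so this result does not cover UMIs gathered in single nuclei. Named genes were the 12 highest and 12 lowest ratios, the 15 furthest above other nuclei, up to 4 per list by UMIs and fixed genes; other names, the split by Ntrk3 and the values without the top nucleus were chosen after values were seen. Genes were named from the files. A few list members and 1 list are not reported here.

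Tissue counts (10397310 to 24480984 per library) were fitted with edgeR 4.0.16 in R 4.3.3 (TMM, filterByExpr, robust quasi-likelihood, two-sided, all 8 libraries, 4 residual degrees of freedom). On simulated counts it recovered 63% of planted 2-fold and 89% of 4-fold changes at 24 h over 14892 genes. No count row lacked a gene name. DESeq2 1.42.0, other scalings and left-out libraries were alternatives.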

Additional observations from a re-analysis of the deposited data

How the results depend on the processing

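The share of smooth muscle nuclei was 0.467% with BT2 and 0.104% with vehicle when Ptprc, Flt1 and Pdgfra had to be at 0, and 0.509% and 0.0785% after thinning to 1000 UMIs. Over the 6 alternatives its ratio ranged from 4.02 to 6.49. With nuclei of 2 or more Ptprc UMIs left out of the total, which is not among these 6, the ratio was 3.2 (1.94 to 5.52). The count of genes 2-fold higher with BT2 was 72, and it became 41 with those 3 genes at 0, 36 when scaled by the median ratio, 309 from 20 UMIs, 25 from 100 UMIs and 6 with the same CPM minimum. The 8 lower genes became 5 with those 3 genes at 0, 14 with equal weight per nucleus, 20 when scaled by the median ratio, 60 from 20 UMIs, 4 from 100 UMIs and 3 in nuclei without pericyte UMIs. The contractile ratio of 0.86 moved to 0.90 with a marker sum of 8 or more, 0.68 when scaled by the median ratio, 0.81 in the 58 BT2 and 15 vehicle nuclei poorest in cardiomyocyte UMIs and 0.73 in the 70 BT2 and 18 vehicle nuclei left without the deepest. It turned to 1.01 with Ptprc, Flt1 and Pdgfra at 0 and to 1.03 without pericyte UMIs. The matrix ratio of 0.88 moved to 0.98 with those 3 genes at 0, 0.73 with equal weight, 0.70 when scaled and 0.69 without the deepest nuclei. The immediate early ratio kept within its spread under these 8 alternatives, but was 2.34 (1.26 to 4.80) in nuclei without Ntrk3. The cause of these moves was not tested; fewer nuclei or genes enter most of them. The same CPM minimum, the pericyte-free nuclei, the Ntrk3 ratios without the top nucleus and the shared-barcode check were chosen after seeing the data.

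In tissue, leaving out 1 library gave 1484 to 2277 genes higher and 1492 to 2281 lower, and 4 to 8 contractile genes higher and 3 to 5 lower. With the sample number as a replicate block the counts were 2793 higher and 3031 lower, and 7 and 7 for contractile genes; deviations of equal-numbered libraries correlated at 0.018, so the numbers were not taken as pairs. Depth limits genes with few vehicle UMIs, such as Fos (interval 1.86 to 448).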
